A study of Mus musculus with 6 samples.

Results

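Imprinted genes are expressed mainly from the copy inherited from one parent. The genes described here are 9 members of a set of imprinted genes with known roles in growth, namely Cdkn1c, Igf2, H19, Dlk1, Meg3, Peg3, Mest, Plagl1 and Grb10. All array probes whose RefSeq accession carries one of these symbols were taken. This gave 17 probes for 8 of the 9 genes, out of 26582 probes matched to a symbol, and all 17 passed the filter on dim probes, as did 24907 of the 26582 matched probes. H19 had no matched probe and was not analysed here. Cdkn1c, Igf2 and Grb10 had 1 probe each, Dlk1 and Peg3 had 2, Meg3 and Mest had 3, and Plagl1 had 4.

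Cdkn1c encodes p57, an inhibitor of cyclin-dependent kinases that takes chondrocytes out of the cell cycle. Igf2 is a growth factor, H19 is the noncoding RNA beside it, and Grb10 is an adaptor that dampens signalling from the insulin and IGF receptors. Dlk1 is a membrane protein related to Notch ligands, and Meg3 is the noncoding RNA expressed from the other parental copy of the same region. Plagl1 is a zinc finger transcription factor that acts on other imprinted genes, Peg3 is a zinc finger protein, and Mest resembles a hydrolase. Many genes of this set are active in young growing tissues and decline after birth. The growth plate is the cartilage through which long bones lengthen, and its chondrocytes leave the cell cycle as they enlarge.

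RNA of the tibial growth plate, captured by laser microdissection from untreated male C57BL/6J mice aged 4 weeks, was hybridised to Agilent arrays. There were 3 genotypes with 2 arrays each, labelled ATF6aKO (knockout of ATF6a, gene Atf6), ATF6bKO (knockout of ATF6b, gene Atf6b) and WT (wild type). ATF6a and ATF6b are transcription factors of the endoplasmic reticulum membrane that are released by cleavage when unfolded proteins accumulate, and the title of the series asks what this sensor does in long bone growth. The labels give no promoter or Cre and do not say how the alleles were made, whether animals were pooled, or if replicate arrays stand for different mice. The p-values given here therefore rest on array-to-array spread alone, part of which may be technical.

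The probes of the targeted genes did not tell the 2 knockouts apart, although for Atf6b all knockout arrays lay below both WT arrays. The Atf6 probe read 7.07 and 6.97 (normalised log2 intensity) in ATF6aKO and 6.91 and 7.01 in ATF6bKO, with WT at 7.05 and 7.28, and the Atf6b probe read 8.92 and 8.48, 8.77 and 8.41, and 9.06 and 9.19. Whether either probe lies in the deleted part is not given in the sources used here, so these levels do not check the labels. The 4 knockout arrays lay on 1 slide and were read in the red channel. The 2 WT arrays lay on another slide and were read in a single channel named green. Slide, channel and genotype therefore cannot be told apart in any comparison with WT. On the knockout slide the ATF6aKO arrays lay in row 1 and the ATF6bKO arrays in row 2, so slide row and genotype cannot be told apart between the knockouts. Median spot intensities lay between 146 and 259.5, and 86.9% to 96.7% of spots were well above background. The arrays correlated at r of 0.961 to 0.985 among knockouts, 0.95 within WT and 0.823 to 0.889 between knockout and WT. The defining cartilage marker Col2a1 read between 10.88 and 15.36 on the 6 arrays. WT replicate 1 stood apart in bone and marrow genes, with Col1a2 at 16.02 against 8.62 in WT replicate 2, so values without this array are given for the 9 genes where they change a call.

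Promoter sequences were read from RefSeq (build GRCm38.p6), which held windows for 7 of the 9 genes, Cdkn1c and H19 having none, 14 windows in all. Each window runs from 250 bases before to 50 bases after a start site. They were searched on both strands for the motifs through which ATF6 and its partners are known to act, since the question of the series is ATF6. The ER stress element, CCAAT and CCACG with 9 free bases between them, was in 0 of the 14 windows and in 0.119% of all 32851 windows. The second ER stress element, ATTGG and CCACG with 1 free base between them, was in 0 of the 14 and 0.0365% of all, and the unfolded protein response element TGACGTGG in 0 of the 14 and 0.676% of all. The site described for PLAGL1 itself, a run of 6 G and 4 C, was in 0 of the 14 and 0.0852% of all. The E-box CACGTG, taken as a comparison, was in 1 of the 14 and 7.15% of all, and the cAMP response element TGACGTCA, which shares its first 6 bases with the unfolded protein response element and was searched after the other results were seen, was in 2 of the 14 and 1.79% of all. The 3 windows with a match are printed from their first base to the base before the start site, because they belong to 3 of the genes whose values differed between genotypes. Capitals mark the motif, which starts 182 bases before the start site in Plagl1 (chr10:13090582-13090831, plus strand), 178 bases before it in Peg3 (chr7:6730420-6730669, minus strand) and 57 bases before it in Meg3 (chr12:109540746-109540995, plus strand).
Plagl1, E-box: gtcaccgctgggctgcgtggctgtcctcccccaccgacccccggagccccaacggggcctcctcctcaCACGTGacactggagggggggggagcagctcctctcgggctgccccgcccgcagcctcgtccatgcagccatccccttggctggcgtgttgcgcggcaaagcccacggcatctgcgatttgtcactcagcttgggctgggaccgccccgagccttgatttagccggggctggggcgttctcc
Peg3, cAMP response element: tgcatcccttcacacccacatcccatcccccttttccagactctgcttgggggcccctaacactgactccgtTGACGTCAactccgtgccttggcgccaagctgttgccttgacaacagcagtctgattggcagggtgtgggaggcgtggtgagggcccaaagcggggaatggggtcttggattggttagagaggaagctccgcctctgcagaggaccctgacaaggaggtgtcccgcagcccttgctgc
Meg3, cAMP response element: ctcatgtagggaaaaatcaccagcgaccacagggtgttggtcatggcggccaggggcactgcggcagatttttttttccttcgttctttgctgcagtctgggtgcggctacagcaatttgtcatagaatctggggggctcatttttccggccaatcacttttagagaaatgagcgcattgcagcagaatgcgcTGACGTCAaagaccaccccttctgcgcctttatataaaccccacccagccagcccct
These are matches of letters, and no binding was measured in this series.

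A probe was called where limma's Benjamini-Hochberg adjusted p over all 24907 probes was under 0.05. In ATF6aKO against WT, 7 of the 17 probes were called, where 41.9% of all probes were called. Of the 7, 4 were higher and 3 lower, where 20.1% of all probes were called higher and 21.8% lower. In ATF6bKO against WT, 4 of the 17 were called, where 36.5% of all probes were called. Of the 4, 1 was higher and 3 lower, where 16.6% of all probes were called higher and 19.9% lower. The share called among these genes was therefore near or below that of the array as a whole. The called probes belonged to Cdkn1c, Meg3, Peg3 and Plagl1 in ATF6aKO, and to Cdkn1c, Meg3, Mest and Plagl1 in ATF6bKO. Without ATF6aKO replicate 2, 2 of the 17 were called in ATF6aKO against WT, namely Cdkn1c and Plagl1 probe 2, and without ATF6bKO replicate 1, 0 were called in ATF6bKO against WT. The median log2 difference of the 17 probes was 0.13 and -0.02, beside -0.02 and -0.05 for all probes. In ATF6aKO against ATF6bKO, 0 of the 17 were called by limma and 6 had an unadjusted p under 0.05, where 0% of all 24907 probes were called and 1605 had an unadjusted p under 0.05. When only the 4 knockout arrays were fitted, 29 of all probes and 0 of the 17 were called. The arrays of the 2 genotypes did not overlap for 14 of the 17 probes in ATF6aKO against WT (72.9% of all probes), for 9 in ATF6bKO against WT (72.5%) and for 8 between the knockouts (37.1%).

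**Figure D1:**
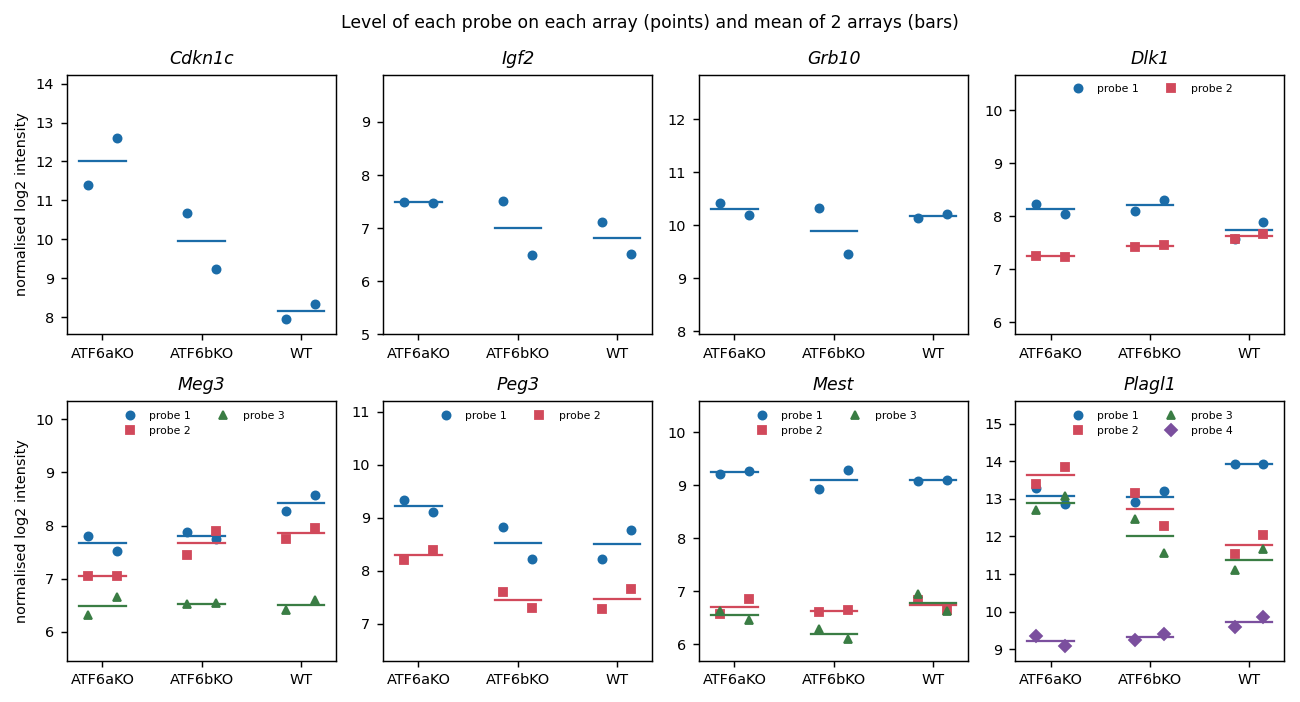
Normalised log2 intensity of the 17 probes on each of the 6 arrays, 1 panel a gene; points are arrays, bars the mean of 2 arrays, and colours and shapes the probes of a gene, each panel with its own range. Cdkn1c runs from 12.61 in ATF6aKO down to 7.96 in WT, and the 4 Plagl1 probes move in opposite directions.

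Cdkn1c, the cell cycle inhibitor, showed the widest range of the 8 genes and rose in both knockouts against WT. Its probe (A_51_P339540) read 11.40 and 12.61 in ATF6aKO and 10.67 and 9.25 in ATF6bKO, with WT at 7.96 and 8.35, as normalised log2 intensity. The 3 genotypes did not overlap, and ATF6aKO was highest and WT lowest. As scanned, its spot brightness (median intensity) was 2498.5 and 5824.5 for the ATF6aKO arrays, 1289 and 437 for the ATF6bKO arrays and 326 and 369 for the WT arrays. The ATF6aKO spots were thus the brightest before normalisation, though WT was read in another channel on another slide. ATF6bKO replicate 2 was close to WT replicate 2 as scanned (437 and 369) and further above it after normalisation (9.25 and 8.35). The means were 12.00 ± 0.85, 9.96 ± 1.0 and 8.15 ± 0.28 (SD, n = 2 each). ATF6aKO exceeded WT by 3.85 ± 0.51 (SE), or 14.4-fold, with an adjusted p of 0.00157 in limma. ATF6bKO exceeded WT by 1.81 ± 0.51, or 3.49-fold, with an adjusted p of 0.0286. This second call rested on ATF6bKO replicate 1, without which the difference was 1.11 (adjusted p 0.160), and it was also lost with a trended and robust variance (0.114) and with the processed signal (0.0569). Between the knockouts the difference was 2.04 ± 0.51, with a 95% confidence interval of 0.86 to 3.23, and its adjusted p was 0.582.

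General cartilage genes moved with Cdkn1c. Of the hypertrophic chondrocyte markers, 3 rose as it did in each knockout, 1 fell and 4 were not called. Those of the resting zone fell or were not called. All 14 listed chondrocyte markers were measured by their brightest probe. Of these, 12 rose and 1 fell in ATF6aKO against WT (median log2 difference 2.92), where 42.6% of all 19122 genes were called (20.3% higher and 22.3% lower), and 7 rose and 2 fell in ATF6bKO against WT (median 1.42), where 37.4% were called (17.3% higher and 20.2% lower). They averaged 12.00 and 12.27 on the ATF6aKO arrays, 11.17 and 10.24 in ATF6bKO, with WT at 9.47 and 9.73. Col2a1, the main cartilage collagen, read 15.06 and 15.36, 14.51 and 13.25, and 10.88 and 11.15, and Acan, the main cartilage proteoglycan, had means of 13.50 in ATF6aKO, 12.23 in ATF6bKO and 10.61 in WT. Of 8 markers of hypertrophic chondrocytes, the enlarged cells nearest the bone, 3 rose and 1 fell in each knockout, with medians of -0.29 and -0.33 (0.48 and 0.36 without WT replicate 1). The collagen Col10a1 rose by 4.35 and 2.87, the phosphatase Alpl by 3.66 and 2.66 and the signal Ihh by 1.95 and 1.28, while the receptor Pth1r fell by 1.66 and 2.63. Of 7 resting zone markers 0 rose and 4 fell in each knockout, among them Apoe by 1.48 and 1.43. The order of the 6 arrays in Cdkn1c, ATF6aKO replicate 2 highest and WT replicate 1 lowest, was the order in 316 of all 24907 probes (1.27%), among them 4 of the 14 markers, namely Col2a1, Col9a2, Hapln1 and Matn3. Of all genes that varied, the profiles closest to Cdkn1c were those of Gm10754 and the cartilage link protein Hapln1, with a root mean square difference over the 6 arrays of 0.19 and 0.27 log2 units after centring. In these bulk samples, fewer cells of a type and less RNA per cell cannot be told apart, and the part of cartilage content in the Cdkn1c result was not tested.

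**Figure D2:**
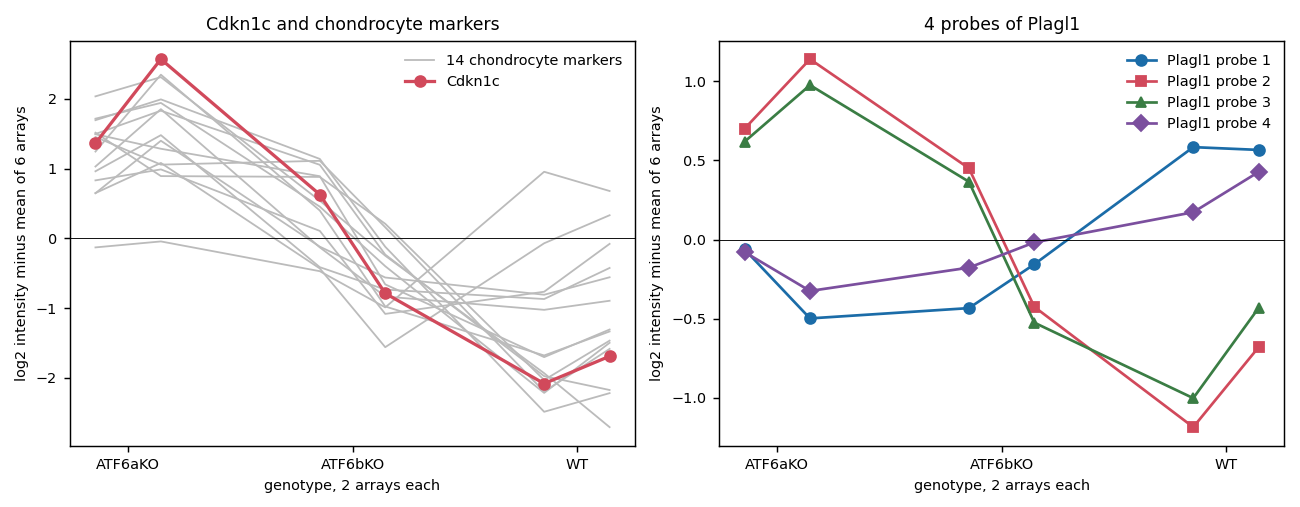
Log2 intensity minus the mean of the 6 arrays, by array, for Cdkn1c (red) and the 14 chondrocyte markers (grey) at left and for the 4 Plagl1 probes at right; lines join the arrays of a probe. Cdkn1c follows most of the markers, and Plagl1 probes 2 and 3 run against probes 1 and 4.

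The other cell cycle genes did not follow one direction. Of 17 measured CDK inhibitors, cyclins, CDKs and retinoblastoma proteins, 7 rose and 5 fell in ATF6aKO against WT, where 42.6% of all genes were called, and 6 rose and 5 fell in ATF6bKO, where 37.4% were called. Ccne1, the cyclin of entry into DNA synthesis, rose by 1.91 and 2.03 on the log2 scale, reading 8.89 to 9.14 on the knockout arrays and 6.87 and 7.13 in WT. Cdkn2c, an inhibitor of CDK4 and CDK6, rose by 1.24 and 0.76, and Rbl1, a relative of the retinoblastoma protein, by 1.09 and 1.15. Rb1, the retinoblastoma protein, fell by 1.41 and 1.42, Cdkn2b, another inhibitor of CDK4 and CDK6, fell by 0.93 and 0.77, and Cdk4 fell by 0.75 and 1.05. Ccnd2, a cyclin partner of CDK4, fell by 1.37 in ATF6aKO and by 1.25 in ATF6bKO. The 2 other inhibitors of the p57 family, named here after their values were seen, were Cdkn1b, which rose by 1.73 in ATF6aKO (adjusted p 0.00320) and stood 0.58 above WT in ATF6bKO (0.144), and Cdkn1a, whose brightest probe rose by 0.89 and 0.70 while its other probe stood 0.04 and 0.05 below WT (adjusted p 0.873 and 0.859). The other probes of Ccne1, Cdkn2b, Cdk4 and Rbl1 were not called in either comparison. Without WT replicate 1 the ATF6aKO call of Cdk4 was lost (adjusted p 0.0847), and without WT replicate 2 both calls of Cdkn1a were (0.0625 and 0.179).

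Plagl1 was called in both directions, depending on the probe. Probe 1 (A_55_P1961965) read 13.29 and 12.86 in ATF6aKO and 12.92 and 13.20 in ATF6bKO, with WT at 13.94 and 13.92, and probe 4 (A_55_P2153251) read 9.34 and 9.09, 9.24 and 9.40, and 9.59 and 9.84. On both, all knockout arrays lay below both WT arrays. Probe 2 (A_55_P1961968) read 13.41 and 13.85 in ATF6aKO and 13.16 and 12.28 in ATF6bKO, with WT at 11.52 and 12.03, and probe 3 (A_52_P532456) read 12.72 and 13.07, 12.46 and 11.57, and 11.09 and 11.66. On these the ATF6aKO arrays were highest, and only on probe 3 did ATF6bKO overlap WT. Probe 1 fell by 0.86 ± 0.20 (SE, adjusted p 0.0123) in ATF6aKO and by 0.87 ± 0.20 (adjusted p 0.0133) in ATF6bKO. Probe 2 rose by 1.85 ± 0.32 (3.61-fold, adjusted p 0.00392) and probe 3 by 1.51 ± 0.32 (2.86-fold, adjusted p 0.00872) in ATF6aKO. In ATF6bKO probe 2 stood 0.95 above WT (adjusted p 0.0526), a value just past the threshold in 6 of 16 alternatives, such as 1.20 (0.0199) without WT replicate 2, and probe 3 stood 0.64 above (adjusted p 0.161), while probe 4 stood 0.50 and 0.40 below WT in ATF6aKO and ATF6bKO (adjusted p 0.0567 and 0.121). Without WT replicate 1 probe 4 was called in ATF6aKO, at -0.62 (adjusted p 0.0431), as it was under 75th percentile scaling (0.0460). Without ATF6aKO replicate 2 the ATF6aKO calls of probes 1 and 3 were lost (adjusted p 0.0707 and 0.0712), and without ATF6bKO replicate 1 so was the ATF6bKO call of probe 1 (0.107), which also missed the threshold with the processed signal (0.0762).

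The 4 Plagl1 probes formed pairs. After centring, probes 2 and 3 differed by a root mean square of 0.16 log2 units over the 6 arrays and probes 1 and 4 by 0.22, while probes of different pairs differed by 0.90 to 1.21. Probe 2 had the same order of arrays as Cdkn1c. All 4 were well above background on all 6 arrays, and none was saturated. Averaging the 4 probes gave a difference of 0.50 for ATF6aKO and 0.08 for ATF6bKO against WT, opposite in sign to the brightest probe, so no single direction is given for this gene. Which transcripts each probe detects is not given in the files.

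Meg3 fell in ATF6aKO on its 2 brighter probes and in ATF6bKO on 1 of them, and its neighbour Dlk1 was not called. Meg3 probe 1 (A_52_P196568) read 7.80 and 7.52 in ATF6aKO and 7.88 and 7.74 in ATF6bKO, with WT at 8.27 and 8.58, with every knockout array below every WT array. It fell by 0.76 ± 0.19 (SE, adjusted p 0.0146) in ATF6aKO and by 0.62 ± 0.19 (adjusted p 0.0367) in ATF6bKO. Without ATF6aKO replicate 2 or WT replicate 2 the first adjusted p was 0.0840 or 0.0595. The second call was lost without either ATF6bKO array (adjusted p 0.115 and 0.172), without WT replicate 2 (0.148) and under 75th percentile scaling (0.0578) or with the processed signal (0.0693). Meg3 probe 2 (A_51_P455997) read 7.05 and 7.05, 7.45 and 7.89, and 7.75 and 7.96. It fell by 0.80 ± 0.20 in ATF6aKO (adjusted p 0.0141; 0.0520 and 0.0661 without ATF6aKO replicate 1 or 2), whereas ATF6bKO overlapped WT and stood 0.18 below it (adjusted p 0.487). Probe 3 lay between 6.32 and 6.66 on all 6 arrays and differed by -0.01 and 0.02.

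Dlk1 probe 1 read 8.24 and 8.04 in ATF6aKO and 8.10 and 8.31 in ATF6bKO, with WT at 7.58 and 7.89, and probe 2 read 7.25 and 7.24, 7.42 and 7.46, and 7.58 and 7.67. The probes differed in sign: probe 1 stood 0.40 and 0.47 above WT (adjusted p 0.115 and 0.0830) and probe 2 stood 0.38 and 0.18 below it (adjusted p 0.0784 and 0.378). No array of a knockout overlapped WT on either probe. Among 13 measured genes of the Notch pathway, to which Dlk1 is related, 1 rose and 3 fell in ATF6aKO, and 2 rose and 3 fell in ATF6bKO, a share near or below that of all genes (42.6% and 37.4% called). The receptor Notch1 rose by 1.41 and 1.29, the brightest probe of the receptor Notch2 fell by 1.44 and 1.21 while its other probe rose by 1.15 and 1.06, the ligand Dll4 fell by 1.57 and 1.36, and Rbpj, the DNA-binding partner of Notch, fell by 1.07 and 0.62. Lfng, which adds sugars to Notch, rose by 0.63 in ATF6bKO and stood 0.23 above WT in ATF6aKO (adjusted p 0.368). The Lfng call was lost without WT replicate 1 or 2 (adjusted p 0.0979 and 0.0592), and the ATF6bKO call of Rbpj without WT replicate 2 (0.125).

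Beside Meg3 and Dlk1 on chromosome 12, 2 other imprinted genes fell in both knockouts. Mirg, a noncoding RNA that carries many microRNAs and is expressed from the same parental copy as Meg3, read 8.59 and 8.93 in ATF6aKO and 8.54 and 8.76 in ATF6bKO, with WT at 10.22 and 10.27. It fell by 1.49 and 1.60 (adjusted p 0.00124 and 0.00123). Dio3, the enzyme that inactivates thyroid hormone, read 8.12 and 8.17, 8.14 and 8.27, and 9.26 and 9.56, and fell by 1.26 and 1.20 (adjusted p 0.00171 and 0.00244). Rtl1, a gene derived from a retrotransposon, stood 0.28 and 0.16 below WT (adjusted p 0.233 and 0.512), and Rian had no kept probe. Markers of some other cell types were also higher on the WT arrays. Of these, 3 of 6 erythroid markers fell and 1 rose in each knockout, and their mean level was 9.41 and 8.41 in WT and 7.10 to 7.29 in the knockouts, while 8 endothelial markers had a mean level of 8.46 and 8.24 in WT and 7.61 to 7.75 in the knockouts. Macrophage and neutrophil markers averaged 8.26 and 8.48 in WT and 8.47 to 8.61 in the knockouts, and skeletal muscle markers 7.94 and 7.53 against 7.77 to 7.99. Of the marker with the highest mean level in each list, the globin Hba-a1 fell by 5.71 in ATF6aKO and fell by 5.44 in ATF6bKO, and the endothelial receptor Kdr fell by 1.25 and 1.1, whereas Tnni2 of muscle rose by 3.09 and 2.61, and Col1a2 of bone, Oscar of osteoclasts, Csf1r of macrophages, Adipoq of fat and Prg4 of the joint surface were not called. In each knockout 0 rose and 3 of 7 fell among osteoblast and osteocyte markers, 1 of 8 osteoclast markers rose, and none of 6 adipocyte and 6 perichondrium, tendon and synovium markers was called. The osteoblast and osteocyte markers had median log2 differences of -1.05 and -1.11, which were -0.15 and -0.21 without WT replicate 1. Of 8 endothelial markers 0 rose and 4 fell in ATF6aKO, and 1 rose and 3 fell in ATF6bKO. For 8 macrophage and neutrophil markers these were 1 and 2, then 2 and 1. Of 9 muscle markers 2 rose and 2 fell in each knockout. Over all genes 42.6% were called in ATF6aKO (20.3% higher and 22.3% lower) and 37.4% in ATF6bKO (17.3% and 20.2%). The part of these cell types in the values of Meg3, Mirg and Dio3 was not tested.

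Peg3 was highest in ATF6aKO, on both of its probes. Probe 1 (A_55_P2163319) read 9.33 and 9.11 in ATF6aKO and 8.82 and 8.22 in ATF6bKO, with WT at 8.23 and 8.78, and probe 2 (A_52_P235861) read 8.20 and 8.39, 7.59 and 7.30, and 7.28 and 7.65. On both probes the ATF6aKO arrays lay above the other 4, while ATF6bKO and WT overlapped. Probe 2 rose by 0.83 ± 0.20 (SE, 1.77-fold, adjusted p 0.0138) in ATF6aKO against WT, and probe 1 stood 0.72 ± 0.26 above WT (adjusted p 0.0605). Probe 1 was called without WT replicate 2 (0.98, adjusted p 0.0167), with the mean over probes (0.0263) and with a trended and robust variance (0.0445). ATF6bKO differed from WT by 0.02 (interval -0.59 to 0.63) on probe 1 and by -0.02 (interval -0.48 to 0.44) on probe 2. Against ATF6bKO, on the same slide but in another row of it, ATF6aKO stood 0.70 higher on probe 1 (interval 0.09 to 1.31). On probe 2 ATF6aKO stood 0.85 higher (interval 0.38 to 1.31), and the adjusted p in limma were 0.711 and 0.582. Without ATF6aKO replicate 2, probe 2 was no longer called against WT (adjusted p 0.0813).

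Mest probe 1 lay between 8.93 and 9.28 on all 6 arrays, reading 9.22 and 9.27 in ATF6aKO and 8.93 and 9.28 in ATF6bKO, with WT at 9.09 and 9.10, with differences from WT of 0.15 (interval -0.26 to 0.56) and 0.01 (interval -0.40 to 0.42). Probe 2 lay between 6.57 and 6.86 on all arrays. Probe 3 read 6.62 and 6.47, 6.30 and 6.10, and 6.95 and 6.63, and was not well above background on either ATF6bKO array. It was called in ATF6bKO against WT (adjusted p 0.0396), where its fold is a bound, at least 1.44-fold lower, taken against the lowest signal well above background. That call was lost without WT replicate 1 (adjusted p 0.174), ATF6bKO replicate 1 or 2 (0.0998 and 0.191) or ATF6aKO replicate 1 or 2 (0.0525 and 0.0514), and under 75th percentile scaling (0.523).

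Igf2 and Grb10 were not called in any comparison. The Igf2 probe read 7.49 and 7.47 in ATF6aKO and 7.50 and 6.49 in ATF6bKO, with WT at 7.11 and 6.52. Its spots were dim, with median intensities between 63 and 159 over backgrounds of 16 to 40, although it was well above background on all 6 arrays. ATF6aKO stood 0.67 ± 0.34 above WT (adjusted p 0.146) and ATF6bKO 0.18 ± 0.34 (adjusted p 0.699), and without WT replicate 1 the ATF6aKO difference was 0.93 (adjusted p 0.0460), as it was 0.89 under 75th percentile scaling (0.0454). Grb10 read 10.42 and 10.19, 10.33 and 9.46, and 10.14 and 10.20, and all genotypes overlapped. Its differences from WT were 0.13 (interval -0.51 to 0.78) and -0.27 (interval -0.92 to 0.37).

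Of 21 measured genes of the IGF and insulin receptor axis, 3 rose and 7 fell in ATF6aKO, and 2 rose and 6 fell in ATF6bKO, a share near that of all genes (42.6% and 37.4% called). Igf1, the other growth factor of the family, read 8.20 and 8.36 in ATF6aKO and 8.62 and 8.92 in ATF6bKO, with WT at 10.18 and 10.44, and fell by 2.02 and 1.54 (adjusted p 0.000618 and 0.00146) on its brightest probe, while its 2 dimmer probes were not called. Igfbp6, a binding protein that prefers IGF2, fell by 2.45 and 2.15, and the binding protein Igfbp2 fell by 0.91 and 0.88. Irs1, which relays the signal of both receptors, read 9.01 and 9.60, 8.50 and 7.86, and 6.89 and 6.65, and rose by 2.54 and 1.41. Igfbp1, another binding protein, rose by 0.58 and 0.52, calls that were lost without WT replicate 2 (adjusted p 0.0734 and 0.112). Grb14, a relative of Grb10, was not well above background on either WT array. It rose 1.48-fold in ATF6aKO (adjusted p 0.0381), a log2 difference of 0.57, and this call was not kept without WT replicate 1, where the difference was 0.43. In ATF6bKO, where it was well above background on 1 of the 2 arrays, it stood 1.41-fold above WT and was not called (0.0656). These folds are estimates close to background. The imprinted Igf2r, which clears IGF2 from the cell surface and is named here after its values were seen, read 8.88 and 9.16, 8.49 and 8.24, and 7.84 and 7.52, and rose by 1.34 and 0.68 (adjusted p 0.00220 and 0.0302; the second 0.114 without WT replicate 2).

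**Figure D3:**
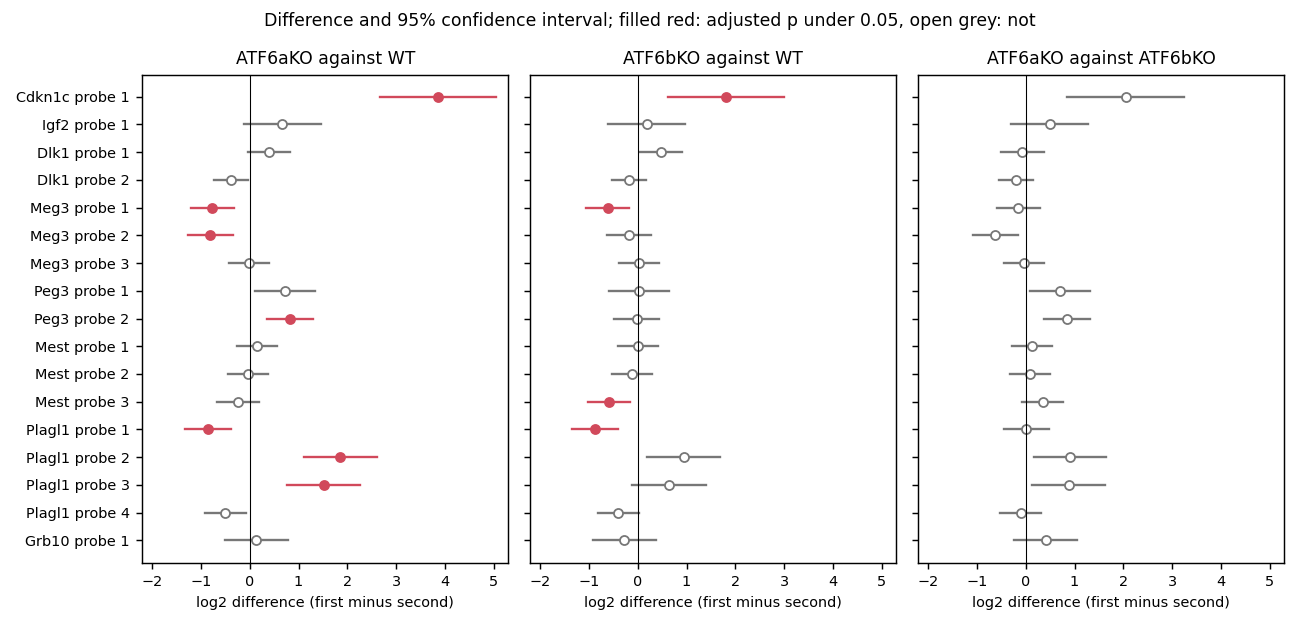
Log2 difference of the 17 probes with its 95% confidence interval in the 3 comparisons; filled red marks an adjusted p under 0.05 in limma and open grey the rest. In ATF6aKO against WT 7 probes are filled, in ATF6bKO against WT 4, and between the knockouts 0.

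Around the 9 genes lie other imprinted genes of the same clusters. Of the other imprinted genes listed, 22 lie within 2 megabases of one of 6 of the 9 genes, and 21 of these were measured; this distance was chosen after the values were seen. Of the 21, 4 rose and 8 fell in ATF6aKO against WT, where 42.6% of all genes were called, and 3 rose and 7 fell in ATF6bKO, where 37.4% were called. On chromosome 7 near Cdkn1c lies Kcnq1ot1, an antisense RNA that silences that cluster on the copy it is made from. The brightest Kcnq1ot1 probe rose by 0.91 in ATF6aKO (adjusted p 0.0468), a difference of only 0.43 without WT replicate 2. In ATF6bKO this probe stood 0.40 above WT (adjusted p 0.340). The other Kcnq1ot1 probe rose by 0.52 and 0.61 (adjusted p 0.0406 and 0.0266). In the same cluster Slc22a18 fell by 1.06 and 1.1 (adjusted p 0.0676 and 0.0573 without WT replicate 2) and Tssc4 by 1.05 and 1.38, while Phlda2, a brake on placental growth, stood 0.29 and 0.22 below WT (adjusted p 0.290 and 0.449). The brightest Nap1l4 probe rose by 1.85 and 1.69, whereas its second probe stood 0.54 below WT in ATF6aKO. Toward Igf2, Ins2 fell by 1.27 and 1.05 and Tspan32 by 1.37 and 1.31.

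Beside Peg3, the zinc finger gene Zim1 rose by 0.91 and 0.65 (the second not called without WT replicate 2, adjusted p 0.147) and Usp29 stood 0.23 and 0.28 below WT (adjusted p 0.373 and 0.303). Beside Mest, the transcription factor Klf14 rose by 1.03 and 0.79 and Copg2 stood 0.29 and 0.05 above WT (adjusted p 0.330 and 0.888). Beside Grb10, the brightest probe of Ddc, an enzyme of amine synthesis, fell by 1.54 and 1.29, and its other probe rose by 1.53 and 1.35, so no direction is given for this gene.

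**Figure D4:**
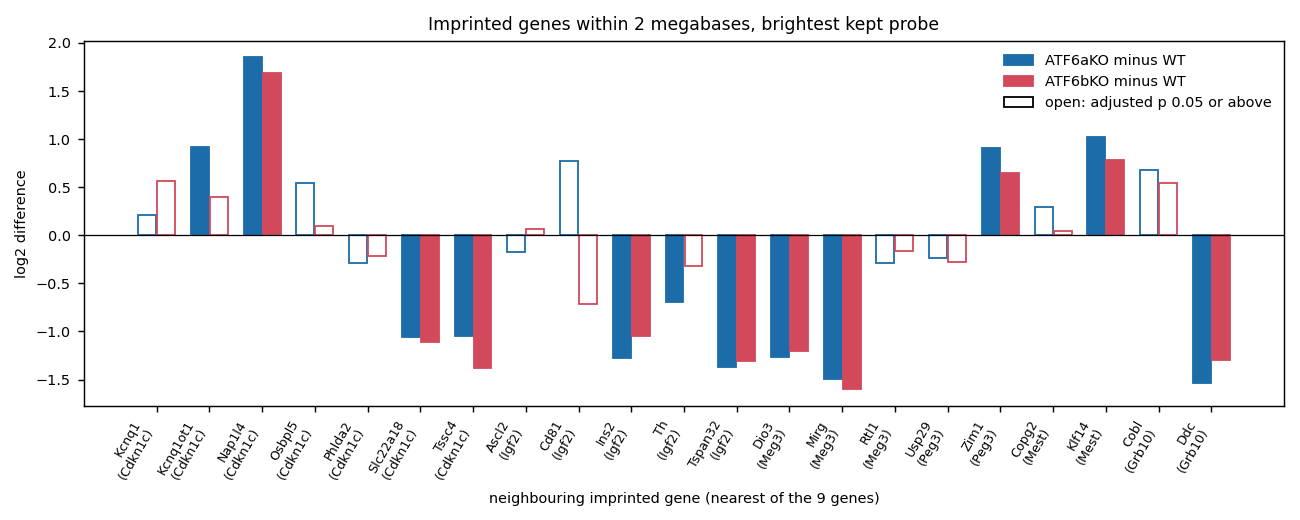
Log2 difference from WT of the 21 measured imprinted neighbours, blue for ATF6aKO and red for ATF6bKO, with the nearest of the 9 genes in brackets; filled bars have an adjusted p under 0.05. Mirg and Dio3 near Meg3 lie below 0 in both knockouts, and Nap1l4 near Cdkn1c is the highest.

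Over all 57 measured imprinted genes outside the set, 13 rose and 14 fell in ATF6aKO, and 10 rose and 12 fell in ATF6bKO, beside 42.6% and 37.4% of all genes called, with medians of 0.13 and 0.05 beside -0.03 and -0.05 over all genes. Sfmbt2 rose by 1.72 and 2.01, reading 9.01 to 9.45 on the knockout arrays and 7.27 and 7.45 in WT on its brightest probe, and Mcts2 rose by 1.63 and 1.29. Among 16 measured genes that maintain imprints or belong to the family of Plagl1, 0 rose and 4 fell in ATF6aKO, and 1 rose and 4 fell in ATF6bKO, below the share of all genes (42.6% and 37.4% called). Dnmt3l, a cofactor of DNA methylation, fell by 0.89 and 0.91, and Trim28, the corepressor that protects imprints, by 0.78 and 0.89. Zfp57, the zinc finger protein that brings Trim28 to imprinted regions, fell by 0.61 in ATF6aKO (adjusted p 0.127 without WT replicate 2) and stood 0.25 below WT in ATF6bKO (0.311) on its brightest probe, while its other probe fell by 0.84 and 0.99. The methyltransferase Dnmt1 fell by 0.59 and 0.69, the first call being lost without WT replicate 1 or 2 (adjusted p 0.0601 and 0.128) and the second without WT replicate 2 (0.0821). The brightest probe of Plagl2, a relative of Plagl1, rose by 0.77 in ATF6bKO and stood 0.38 above WT in ATF6aKO (adjusted p 0.122), and of its other probes 1 rose by 1.65 and 1.89 and 1 fell by 1.65 and 1.58. Without WT replicate 1, 25 of the 27 calls of imprinted genes outside the set were kept in ATF6aKO and 21 of 22 in ATF6bKO, and without WT replicate 2, 22 and 16. For the IGF list 9 of 10 and 7 of 8 were kept without WT replicate 1, and 7 and 5 without WT replicate 2. For the cell cycle list these were 10 of 12 and 10 of 11, then 9 and 8, for the Notch list 4 of 4 and 4 of 5, then 4 and 3, and for the imprint maintenance list 3 of 4 and 4 of 5, then 2 and 3. No called gene of these 5 lists changed sign without either WT array, under 75th percentile scaling or with the processed signal.

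The genes of the set did not share one profile. After centring, by the brightest probe, the closest pair was Meg3 and Plagl1. Their root mean square difference over the 6 arrays was 0.19 log2 units, for Plagl1 probe 1, against which probes 2 and 3 ran. Dlk1 and Mest followed with 0.22, but both varied little, with SDs of 0.26 and 0.14 over the arrays. Among all genes that varied, those closest to the others were Zfp64 and Pusl1 for Plagl1 probe 1 (0.053 and 0.078), Grin2b and Bcar1 for Meg3 (0.11 and 0.12), Wsb1 and Pkm for Igf2 (0.15 and 0.16), Agpat1 and Iqsec2 for Peg3 (0.15 and 0.18) and Impa2 and Il17b for Grb10 (0.21 and 0.30). For Dlk1 they were Acer1 and Prr18 (0.22 and 0.23), and for Mest Kctd10 and Slc30a9 (0.38 and 0.39). Only genes with an SD of at least 0.5 over the arrays were candidates, whereas these genes had SDs of 0.14 (Mest) to 0.48 (Igf2). By this rule each nearest gene varied more than the gene it was set beside. For Mest the differences exceeded its own SD, and for Dlk1 (SD 0.26) they were close to it, so neither shows a likeness of profile.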

How the data were processed

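RNA was measured on 6 one-sample Agilent arrays, per the labels' protocols dyed with Cy5. The deposited scanner files hold the intensity of each spot. The submitters' processing notes name Agilent Feature Extraction 10.7.1.1 for them. The knockout files have 2 channels and the WT files 1, named green, per the file headers; the red channel was used for the knockouts and the single channel for WT. The authors' deposited value table holds log2 values; its differences between arrays follow the green signal (r of at least 0.998) and not the labelled channel (r of 0.0392 to 0.160 where a knockout array was involved). On the knockout arrays the green processed signal of Cdkn1c was between -2.09 and 0.69. The table, whose scale constants and centring stay unknown (column medians 0.2, 0.1, 0, 0.221, -0.5 and -0.5), served only as an alternative.

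Median spot intensities were corrected with normexp (limma 3.58.1, R 4.3.3, offset 50), taken to log2, stripped of control and outlier spots (288 probes left out), averaged per probe and quantile normalised. Accessions were matched to RefSeq symbols (GRCm38.p6, names and neighbours; the array's build is not given). A probe was kept where some genotype had it well above background on its 2 arrays, and a gene stands for its brightest kept probe. All 6 arrays were fitted together with lmFit and eBayes. The number of arrays limits the precision; with 2 against 2 an exact permutation test cannot go below 0.333.

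The 9 genes, the lists and the tests were chosen with earlier results of these data known. Named are all probes of the 9 genes, in each list up to 3 genes per direction of smallest p with arrays that do not overlap, the 2 nearest profiles per gene among genes with an SD of at least 0.5, and Col2a1, Acan and the brightest marker of other cell types; a gene so named is given in both comparisons with WT, and other probes of it where they disagree. Imprinted neighbours, Igf2r, Cdkn1a and Cdkn1b were named after their values were seen. Of the hypertrophic chondrocyte markers all called ones were named, Alpl, Ihh and Pth1r besides the brightest, Col10a1, and the 4 that were not called were left unnamed. The fit was tested on simulated data, where 67, 67 and 66 of 24907 probes were changed by 1, 2 and 4 log2 units. In ATF6aKO against WT it recovered 22.4%, 79.1% and 98.5% of these, and in ATF6bKO against WT 22.4%, 76.1% and 97.0%. Between the knockouts it recovered 34.3%, 82.1% and 98.5%. The share of calls that were false was 5.67%, 5.11% and 4.67% in the 3 comparisons. Against WT far more probes were called in the data (10435 and 9084), so these shares do not give the recovery there. Between the knockouts 0 were called in the data, and Cdkn1c, at a difference of 2.04, had an adjusted p of 0.582 in limma. The shares do not give the recovery in that comparison either. Other scalings, filters, probe rules, variance models and left-out arrays were tried.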

Additional observations from a re-analysis of the deposited data

How the results depend on the processing

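Of the called probes of the 9 genes, Cdkn1c (3.23 to 4.47) and Plagl1 probe 2, both in ATF6aKO against WT, stayed past the threshold under every alternative that used the labelled channels, and each other call was lost under at least 1. In ATF6aKO against WT, 7 of the 17 probes were called, 3 of 8 genes with 1 probe per gene or with the mean over probes, and 2 to 9 with 1 array left out. In ATF6bKO against WT, 4 were called, 2 with the processed signal, 1 of 8 genes with the mean over probes, 7 with the authors' deposited table, and 0 to 4 with 1 array left out (0 without ATF6bKO replicate 1). Over all probes, 10435 were called in ATF6aKO against WT, 22931 when all non-control probes were tested, and 5935 to 10271 with 1 array left out (5935 without ATF6aKO replicate 2). For ATF6bKO against WT these counts were 9084, 20450, and 3790 to 8857 (3790 and 4680 without ATF6bKO replicate 1 or 2). Between the knockouts the count was 0, 29 with only these 4 arrays, and 0 to 23 with 1 array left out (23 without ATF6aKO replicate 2). The 75th percentile scaling moved the median of all probes to 0.15 and 0.17 and the split from 5002 higher and 5433 lower to 6725 and 4483 for ATF6aKO against WT, and from 4126 and 4958 to 6152 and 3808 for ATF6bKO against WT. In the authors' deposited table, which follows the green channel, nearly empty on knockout arrays, the splits were 9818 and 3214, and 9868 and 3334, at a median of 1.05. With the replicate block, 9701, 8319 and 0 probes were called in the 3 comparisons, and 7, 3 and 0 of the 17, Meg3 probe 1 losing its ATF6bKO call (adjusted p 0.0576). The deviations of arrays of the same number correlated at -0.068, 0.199 and -0.146, so the numbers were not taken to pair samples. With 1 array left in a genotype, it is assumed to vary like the others. The cause of these changes was not tested.

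Under 75th percentile scaling, values changed sign as follows. For ATF6aKO against WT they were Meg3 probe 3 at 0.33, Mest probe 2 at 0.25, Mest probe 3 at 0.043. For ATF6bKO against WT they were Mest probe 1 at -0.027, Mest probe 2 at 0.25, Peg3 probe 2 at 0.17. For ATF6aKO against ATF6bKO they were Mest probe 2 at -0.00247903. With the processed signal, values changed sign as follows. For ATF6aKO against WT they were Meg3 probe 3 at 0.074, Mest probe 1 at -0.084. For ATF6bKO against WT they were Mest probe 1 at -0.14, Peg3 probe 2 at 0.0047. For ATF6aKO against ATF6bKO they were Plagl1 probe 1 at -0.13. With the mean over probes of a gene (for the brightest probe), values changed sign as follows. For ATF6aKO against WT they were Mest probe 1 at -0.041, Plagl1 probe 1 at 0.50. For ATF6bKO against WT they were Mest probe 1 at -0.23, Peg3 probe 1 at -0.00052268, Plagl1 probe 1 at 0.079. With the authors' deposited table, values changed sign as follows. For ATF6aKO against WT they were Cdkn1c probe 1 at -0.80, Dlk1 probe 2 at 0.027, Grb10 probe 1 at -1.50, Meg3 probe 2 at 1.55, Meg3 probe 3 at 2.30, Mest probe 1 at -1.70, Mest probe 2 at 3.30, Mest probe 3 at 1.43, Peg3 probe 1 at -0.99, Plagl1 probe 2 at -1.20, Plagl1 probe 3 at -1.40. For ATF6bKO against WT they were Cdkn1c probe 1 at -0.80, Dlk1 probe 2 at 0.00196528, Meg3 probe 2 at 1.40, Mest probe 1 at -1.28, Mest probe 2 at 3.35, Mest probe 3 at 2.50, Peg3 probe 1 at -0.95, Peg3 probe 2 at 0.90, Plagl1 probe 2 at -1.50, Plagl1 probe 3 at -1.75. For ATF6aKO against ATF6bKO they were Dlk1 probe 2 at 0.025, Meg3 probe 2 at 0.15, Meg3 probe 3 at 0.05, Mest probe 1 at -0.42, Mest probe 2 at -0.05, Mest probe 3 at -1.07, Peg3 probe 1 at -0.036, Peg3 probe 2 at -0.65, Plagl1 probe 4 at 0.025. Leaving out 1 array at a time, the uncalled values whose sign changed are given by their lowest and highest values. For ATF6aKO against WT they were Meg3 probe 3 -0.19 to 0.16, Mest probe 2 -0.18 to 0.11. For ATF6bKO against WT they were Grb10 probe 1 -0.72 to 0.16, Igf2 probe 1 -0.33 to 0.70, Meg3 probe 2 -0.41 to 0.036, Meg3 probe 3 -0.062 to 0.11, Mest probe 1 -0.17 to 0.19, Peg3 probe 1 -0.28 to 0.32, Peg3 probe 2 -0.20 to 0.16. For ATF6aKO against ATF6bKO they were Dlk1 probe 1 -0.17 to 0.038, Grb10 probe 1 -0.029 to 0.85, Igf2 probe 1 -0.019 to 1.01, Meg3 probe 3 -0.21 to 0.13, Mest probe 1 -0.042 to 0.32, Mest probe 2 -0.056 to 0.24, Plagl1 probe 1 -0.20 to 0.23, Plagl1 probe 4 -0.23 to 0.019.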

Other observations

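In imprinted clusters that hold none of the 9 genes, some neighbours were also called in opposite directions. Over all genes 20.3% were called higher and 22.3% lower in ATF6aKO, and 17.3% and 20.2% in ATF6bKO, so this is not read as a trait of these clusters. The genes below were named after their values were seen. The differences are log2 values against WT from limma, all with slide and channel as for the 9 genes. Nnat, a small membrane protein of developing brain that lies inside an intron of Blcap, fell by 0.95 in ATF6aKO and by 0.99 in ATF6bKO (adjusted p 0.00499 in both), while Blcap itself rose by 0.91 and 1.05 (adjusted p 0.00559 and 0.00402). Peg10, a retrotransposon-derived gene needed for the placenta, rose by 1.196 in ATF6aKO (adjusted p 0.0104) and stood 0.79 above WT in ATF6bKO (adjusted p 0.0530) on its brightest probe, while its other probe fell by 0.72 in ATF6aKO and stood 0.55 below WT in ATF6bKO (adjusted p 0.0175 and 0.0510). Its neighbour Sgce, a sarcoglycan, fell by 0.80 and 0.72 (adjusted p 0.0117 and 0.0205; in ATF6bKO 0.0600 without WT replicate 2), and the brightest probe of Asb4 fell by 1.06 and 0.92 (adjusted p 0.00299 and 0.00584) while its other probe rose by 2.13 and 2.22 (0.000575 and 0.000668). In the cluster around Snrpn, Magel2 rose by 1.88 and 1.71 (adjusted p 0.0231 and 0.0370), a call lost without WT replicate 2 (adjusted p 0.0510 and 0.0901). In the same cluster the ubiquitin ligase Ube3a fell by 0.77 and 1.06 (adjusted p 0.0173 and 0.00609), with an adjusted p of 0.0642 in ATF6aKO without WT replicate 1. Ndn stood 0.23 and 0.13 below WT (adjusted p 0.387 and 0.645), and the brightest of 3 Snrpn probes stood 0.40 and 0.26 below it (adjusted p 0.101 and 0.281), while another fell by 0.53 and 0.61 (0.0443 and 0.0307).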
